A study of Rattus norvegicus with 22 samples.

Results

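The 10 genes described here are 6 ligands of the epidermal growth factor (EGF) family (Areg, Ereg, Hbegf, Btc, Tgfa and Nrg1) and the 4 ERBB receptors (Egfr, Erbb2, Erbb3 and Erbb4). They were taken by gene name from a 1-colour Agilent rat expression array. They hold 13 of its 30367 probes, and 9 of the 10 genes entered a fit of 23479 genes; Btc was too dim. The set was chosen by the measured differences between stretched and control tissue on these arrays, in which Areg and Ereg were higher. Every difference that uses the stretch arrays is therefore given as a description, with no test.

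The tissue was engineered cardiac tissue, a cylinder of cells and matrix held at both ends by anchors. The cells came from the ventricles of embryos (gestational day 14.5, Sprague Dawley strain). All groups were cultured for 7 days, and the treatments started on day 5 and lasted 48 hours. Tissue labelled stretch_BIRB796 (4 arrays) received a uniaxial stretch cycle of 5% elongation at 0.5 Hz together with BIRB796 at 10 µM, a small-molecule inhibitor of the p38 mitogen-activated protein kinases. Tissue labelled BIRB796 (4 arrays) received the inhibitor alone, tissue labelled stretch (7 arrays) the stretch cycle alone, and control tissue (7 arrays) neither. The inhibitor was used at 1 dose and read at 1 time. The replicates are called biological but are not tied to litters or castings, so each p-value reflects only how these samples vary. The tissue holds several cell types, and in such bulk samples fewer cells of a type and less RNA per cell cannot be told apart.

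The file headers place the arrays in 3 scan sessions. Session 1 held stretch replicates 1 to 3 and control replicates 1 to 3, session 2 held stretch replicates 4 to 7, and session 3 held 4 arrays each of stretch_BIRB796, BIRB796 and control. Stretch and control were thus measured side by side in session 1 alone, and stretch shared no session with either BIRB796 group. Levels are given as a percent of the 75th percentile of each array's signal, so that 100 means as bright as that percentile. Stretch replicates 4 and 5 differed by less than the noise between repeated spots and were counted as 1 sample, which left 21 samples. Other close arrays were kept apart. Control replicates 5 and 6 differed by 1.15 times that noise, and stretch_BIRB796 replicates 2 and 3 by 1.32 times. Control replicate 4 differed from control replicates 5 and 6 by 1.44 and 1.67 times that noise. Stretch replicate 7 stood apart, with a 75th percentile of 852.5 intensity units against 1826.3 to 4806.9 on the other arrays. All 9 cardiomyocyte markers were well above background on all 22 arrays.

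EGF family ligands are made as membrane-bound precursors and are released by metalloproteases at the cell surface. Released ligands bind ERBB receptors, which pair up and signal through the RAS to ERK and PI3 kinase to AKT relays. Areg and Tgfa bind the EGF receptor, Ereg, Hbegf and Btc bind both the EGF receptor and ERBB4, and Nrg1 binds ERBB3 and ERBB4. In the embryonic heart, neuregulin 1 from the endocardium acting on ERBB2 and ERBB4 of muscle cells is needed for trabeculation, and Hbegf acts in valve formation.

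The sequences that bear on the results are the upstream region of Areg, the ligand with the greatest difference in stretched tissue, that of Egfr, which was lower there, and the 60-base probes of Ereg and Tgfa. Both upstream regions end at the base before the annotated start in RefSeq's GRCr8 build. The Areg region is chr14:17265642-17265891 on the minus strand and the Egfr region is chr14:95378376-95378625 on the plus strand. Capitals mark, from left to right in Areg, a cyclic AMP response element, a GC box and a TATA box, and in Egfr a GC box read on the opposite strand.
Areg upstream: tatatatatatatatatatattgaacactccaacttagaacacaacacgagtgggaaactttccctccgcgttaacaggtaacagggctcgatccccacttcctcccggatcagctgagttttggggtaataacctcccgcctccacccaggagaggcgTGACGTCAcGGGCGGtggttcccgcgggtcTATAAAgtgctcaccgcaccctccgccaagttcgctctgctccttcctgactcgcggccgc
Egfr upstream: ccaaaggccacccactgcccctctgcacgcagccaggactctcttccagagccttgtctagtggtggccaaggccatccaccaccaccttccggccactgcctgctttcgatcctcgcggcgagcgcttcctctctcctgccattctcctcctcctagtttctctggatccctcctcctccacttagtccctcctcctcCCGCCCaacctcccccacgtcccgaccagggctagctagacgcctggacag
The probes are given with the array's annotation on the rn4 build. The Ereg probe spans chr14:18521343-18522341 on the minus strand, and its 60 bases cover 999 bases of the genome, so it spans an intron. The Tgfa probe lies at chr4:120432206-120432265 on the plus strand, from base 443 of the transcript. No base is capitalised in these probes.
Ereg probe A_44_P540992: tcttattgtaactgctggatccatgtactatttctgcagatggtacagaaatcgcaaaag
Tgfa probe A_64_P122865: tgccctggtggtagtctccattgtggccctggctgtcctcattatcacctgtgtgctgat

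The probes of Btc, Areg and Ereg lie within 288.7 kb of chromosome 14 in rn4, where the genes form a cluster of ligands. A promoter entry (250 bases before to 50 after the start) was matched for 7 of the 10 genes. The cyclic AMP response element, spelled TGACGTCA, lay 91 bases before the Areg start. It was found in 1 of the 7 member promoters and in 1.83% of all 33469 promoters searched on both strands. The GC box (GGGCGG) was found in 6 of 7 member promoters and in 33.1% of all. The AP-1 site (TGANTCA) was in 0 of 7 and in 7.33% of all, the TATA box (TATAAA) in 1 of 7 and in 14.2%, and the CArG box in 0 of 7 and in 1.64%. These are letter matches in these windows and nothing more.

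**Figure D1:**
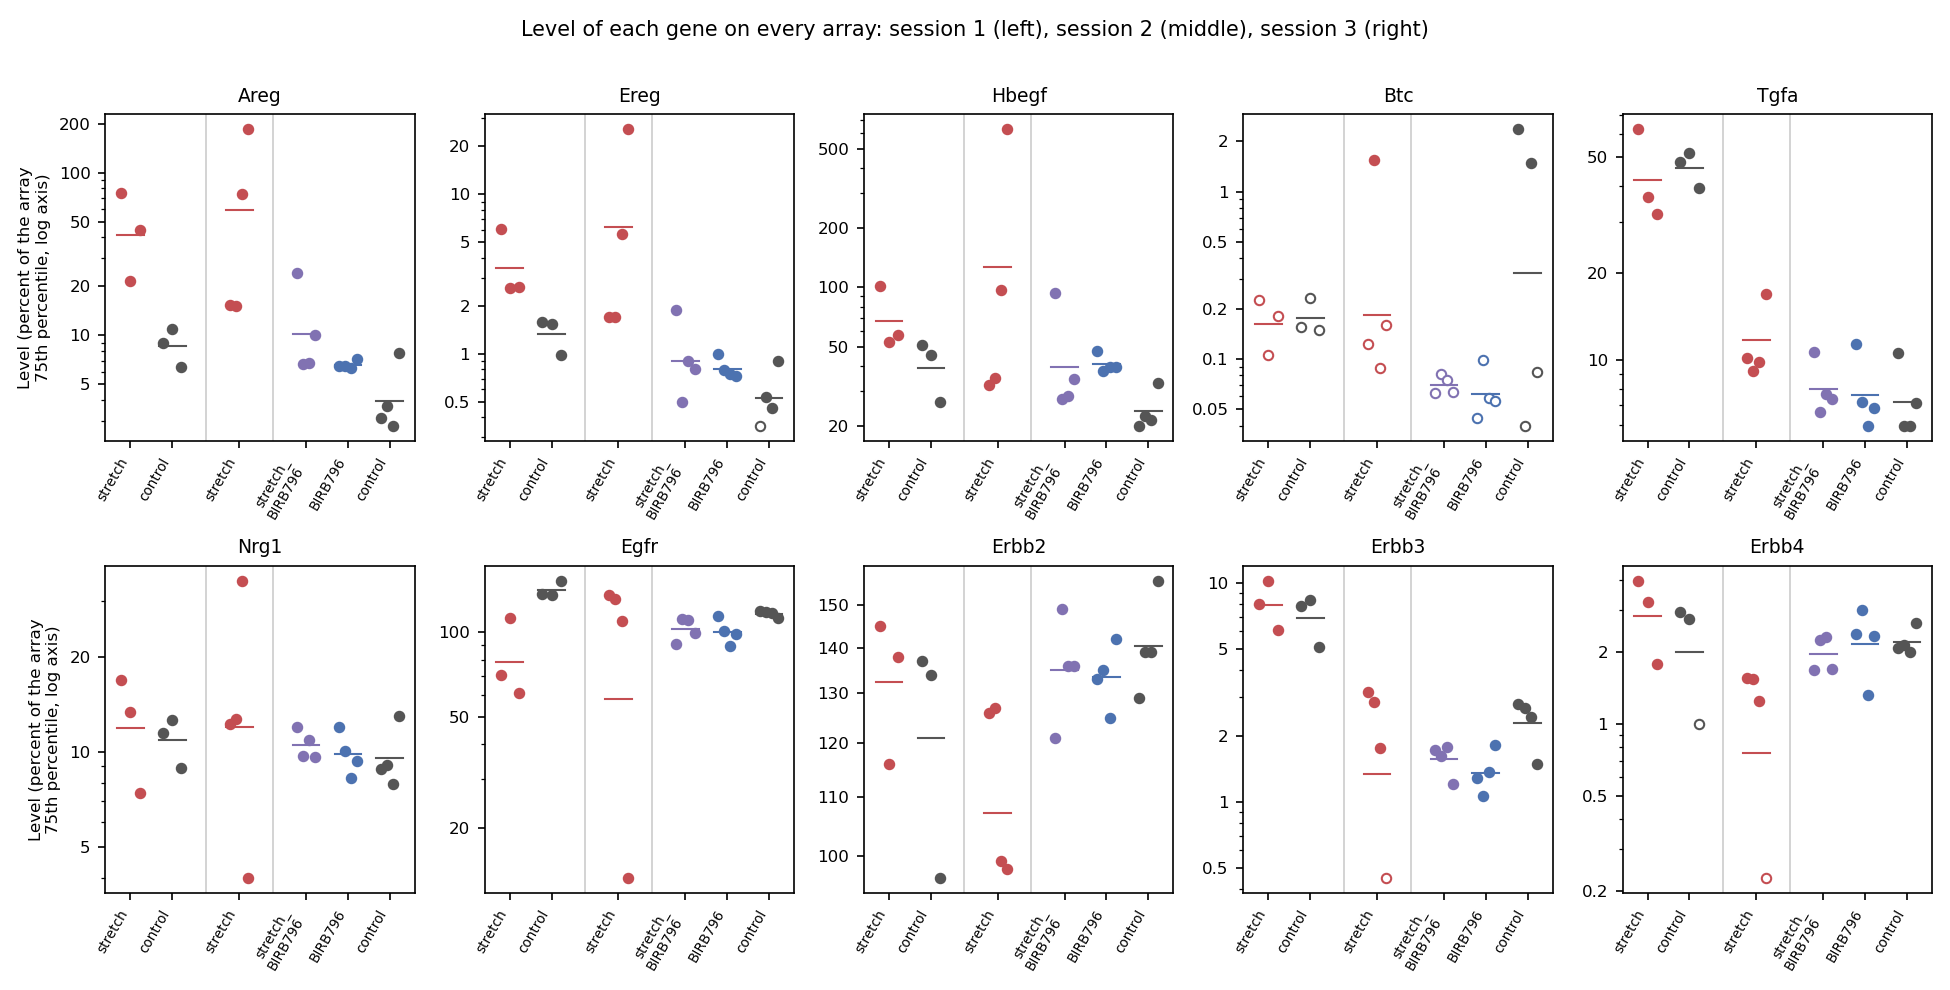
Level of each of the 10 genes on every array, in percent of the array's 75th percentile on a log axis; each point is an array, open points were not well above background, and the line is the mean of log2 levels with stretch replicates 4 and 5 averaged. Areg lies between 21.6 and 74.8 in session 1 stretch arrays, above all 3 control arrays, and the spread between sessions is wide for Tgfa and Erbb3.

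Amphiregulin (Areg, probe A_42_P791677) was the ligand with the greatest difference in stretched tissue. In session 1 it read 74.8, 21.6 and 44.6 percent in stretch replicates 1 to 3, against 9.0, 10.9 and 6.44 percent in control replicates 1 to 3. Every stretch array lay above every control array. The fitted difference was 2.28 ± 0.69 on the log2 scale (SE), a 4.85-fold higher level. Each of the 3 session 1 slides carried 1 stretch and 1 control array, and the log2 difference was 3.06, 0.98 and 2.79 on slides 1, 2 and 3. The size of the difference therefore varied between slides while its sign did not.

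The session 2 stretch arrays, which had no control beside them, read 15.4, 15.2, 73.4 and 185 percent for Areg in replicates 4 to 7. In session 3, Areg read 24.2, 6.64, 6.75 and 10.1 percent in stretch_BIRB796 tissue, 6.48, 6.48, 6.33 and 7.14 percent in BIRB796 tissue, and 3.13, 3.69, 2.77 and 7.81 percent in control tissue. Stretch_BIRB796 replicate 1 was the highest of the session, and control replicate 7 lay above all 4 BIRB796 arrays. The 3 groups overlapped.

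Epiregulin (Ereg) is the neighbour of Areg in the cluster and differed the same way. It read 6.08, 2.59 and 2.61 percent in session 1 stretch tissue, against 1.59, 1.54 and 0.979 percent in session 1 control tissue, a difference of 1.37 ± 0.68 log2 (SE). The groups did not overlap. Within slides 1, 2 and 3 the log2 difference was 1.94, 0.75 and 1.42. In session 3 it read 1.88, 0.498, 0.896 and 0.803 percent in stretch_BIRB796 tissue, 0.998, 0.793, 0.749 and 0.721 percent in BIRB796 tissue, and 0.352, 0.536, 0.457 and 0.907 percent in control tissue. Control replicate 4 was not well above background, and all 3 groups overlapped. With another background correction and scaling (normexp and quantile), the stretch difference of Ereg was 0.49 ± 0.44 log2.

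Heparin-binding EGF-like growth factor (Hbegf) differed the same way by a smaller amount. It read 102, 53.2 and 57.6 percent in session 1 stretch tissue, against 50.9, 45.4 and 26.4 percent in session 1 control tissue, a difference of 0.79 ± 0.70 log2 (SE). The 2 groups did not overlap, but the lowest stretch array lay just above the highest control array. In session 3 it read 93.7, 27.3, 28.3 and 34.3 percent in stretch_BIRB796 tissue, 47.9, 37.9, 39.8 and 39.5 percent in BIRB796 tissue, and 19.9, 22.3, 21.4 and 32.9 percent in control tissue. All 4 BIRB796 arrays lay above all 4 control arrays, and the stretch_BIRB796 arrays overlapped both groups.

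The counts that follow take the brightest probe of each gene. In session 1, 3 of the 9 members (Areg, Ereg and Hbegf) lay wholly above control and 1 (Egfr) wholly below. Over all genes, 4.51% lay wholly above and 4.29% wholly below, or 8.8% without overlap. The members were chosen with this comparison known, so nothing is read from that count. In session 3, 1 member (Hbegf) lay wholly above control in BIRB796 tissue, where 4.87% of all genes lay above and 6.98% below, or 11.8% without overlap. For stretch_BIRB796 against BIRB796 the count was 0, beside 4.42% of all genes above and 1.81% below, or 6.24% without overlap. For stretch_BIRB796 against control, 1 member (Egfr) lay wholly below, beside 7.95% of all genes below and 8.81% above, or 16.8% without overlap. On the brightest probes, a single gene among 9 does not set the members apart from these shares. Other probes of the members separated groups as well. Tgfa probe A_44_P310168 lay wholly above control in stretch, BIRB796 and stretch_BIRB796 tissue. Erbb2 probe A_64_P109493 lay wholly below both BIRB796 and control in stretch_BIRB796 tissue. The shares given here do not cover such probes.

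Betacellulin (Btc) was well above background on 3 of 22 arrays and was left out of the fit. Those arrays were control replicate 4 at 2.37 percent, control replicate 6 at 1.48 percent and stretch replicate 5 at 1.55 percent. Stretch replicate 4, which matched replicate 5 across the array, read 0.123 percent. All other Btc values lay between 0.0397 and 0.231 percent, and no fold change is given.

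Transforming growth factor alpha (Tgfa) has 2 probes, and they did not move alike. The brighter probe, from base 443 of the transcript, read 62.6, 36.4 and 32 percent in session 1 stretch tissue, against 48.1, 51.7 and 39.1 percent in session 1 control tissue. In session 3 it read 11, 6.7, 7.7 and 7.4 percent in stretch_BIRB796 tissue, 11, 7.2, 6.0 and 6.9 percent in BIRB796 tissue, and 11, 6.0, 5.9 and 7.1 percent in control tissue. All groups overlapped within each session, and the 6 arrays of session 1 stood above every later array.

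The other Tgfa probe (A_44_P310168, chr4:120437505-120437564 in rn4, from base 3952) read 22.5, 13.9 and 12.7 percent in session 1 stretch tissue, against 12.2, 11.2 and 6.89 percent in session 1 control tissue. In session 3 it read 6.58, 4.17, 4.84 and 5.56 percent in stretch_BIRB796 tissue, 7.47, 6.31, 4.68 and 5.55 percent in BIRB796 tissue, and 2.32, 2.83, 2.71 and 4.13 percent in control tissue. On this probe every stretch array of session 1 and every array of both inhibitor groups lay above the control arrays of its session. In a fit over all probes its difference was 1.01 ± 0.33 log2 for BIRB796 against control (limma, adjusted p = 0.449) and 0.83 ± 0.33 log2 for stretch_BIRB796 against control (limma, adjusted p = 0.417). The same differences on the first probe were 0.08 ± 0.27 and 0.15 ± 0.27 log2. Why the probes differ was not tested.

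**Figure D2:**
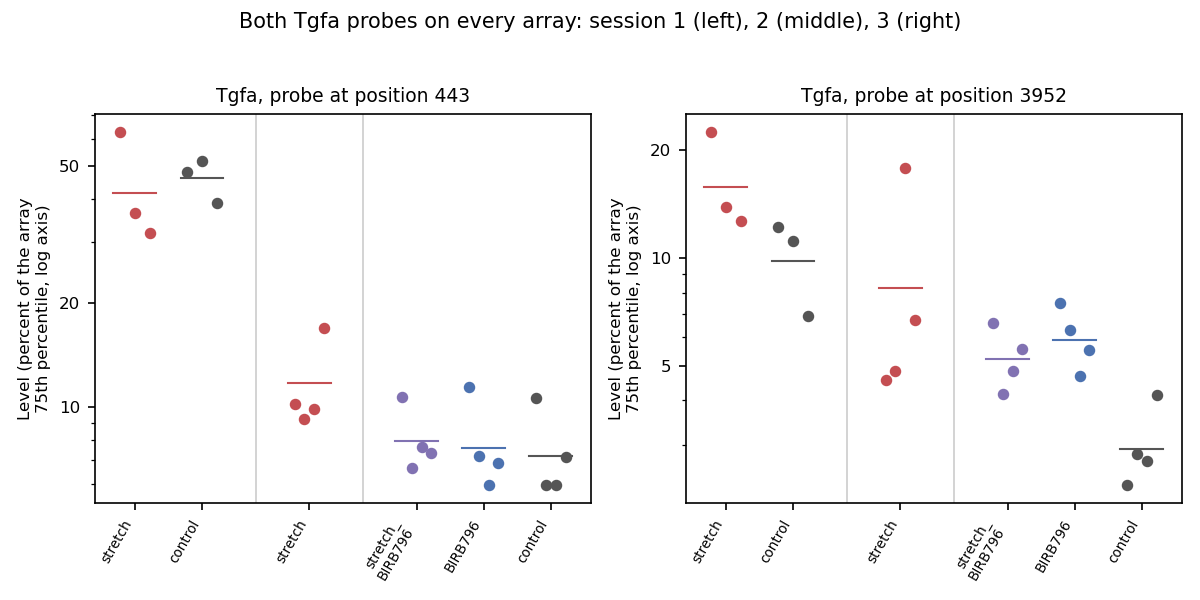
Levels of Tgfa on its 2 probes on every array, in percent of the array's 75th percentile on a log axis, by session and group; points are arrays and lines are means of log2 levels. On the probe at base 3952 the 4 session 3 control arrays, at 2.32 to 4.13 percent, lie below all stretch_BIRB796 and BIRB796 arrays, while on the probe at base 443 the groups overlap.

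Neuregulin 1 (Nrg1), the main ERBB3 and ERBB4 ligand of the heart, showed no separation of groups. It read 16.9, 13.4 and 7.40 percent in session 1 stretch tissue, against 11.5, 12.6 and 8.90 percent in session 1 control tissue. Session 3 arrays ranged from 9.66 to 12 percent in stretch_BIRB796 tissue, from 8.25 to 12 percent in BIRB796 tissue and from 7.94 to 13.0 percent in control tissue. Isoforms were not resolved by its single probe.

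The EGF receptor (Egfr, probe A_44_P346408) was the receptor with the greatest difference in session 1. It read 70.3, 113 and 60.6 percent in stretch tissue, against 137, 136 and 153 percent in control tissue, a difference of -0.86 ± 0.54 log2 (SE), or 0.552 times the control level. Every stretch array lay below every control array, and the within-slide log2 differences were -0.97, -0.27 and -1.33 on slides 1, 2 and 3. The slide with the smallest difference of Areg thus also had the smallest difference of Egfr. In session 2 the stretch arrays read 136, 132, 110 and 13.3 percent, so replicate 7 lay far below the other stretch arrays of its session.

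In session 3, Egfr read 91.0, 112, 111 and 99.3 percent in stretch_BIRB796 tissue, 114, 101, 89.5 and 98.7 percent in BIRB796 tissue, and 119, 118, 117 and 113 percent in control tissue. The control arrays lay within a narrow range, above all stretch_BIRB796 arrays and above 3 of the 4 BIRB796 arrays. The differences were small, at -0.18 ± 0.47 log2 for stretch_BIRB796 against control and -0.22 ± 0.47 log2 for BIRB796 against control (SE). Session 3 fitted alone gave the same differences with an SE of 0.09, and adjusted p = 0.259 and 0.230 by limma.

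Erbb2, the receptor with no known ligand of its own, has 3 probes. The brightest (A_64_P038817) read 145, 116 and 138 percent in session 1 stretch tissue, against 137, 134 and 96.5 percent in session 1 control tissue. The session 3 range was 121 to 149 percent in stretch_BIRB796 tissue, 125 to 142 percent in BIRB796 tissue and 129 to 156 percent in control tissue. Its differences were small, at 0.13 ± 0.16 log2 for stretch against control and none above 0.07 log2 in size in the comparisons of session 3. The dimmest (A_64_P038812) read 0.779 to 1.21 percent in stretch_BIRB796 tissue, 0.876 to 1.14 percent in BIRB796 tissue and 0.660 to 1.1 percent in session 3 control tissue. The other Erbb2 probe (A_64_P109493) ranged from 46.7 to 49.6 percent in stretch_BIRB796 tissue, below all BIRB796 arrays at 49.9 to 56.1 percent and all session 3 control arrays at 53.8 to 57.3 percent. Its difference for stretch_BIRB796 against control was -0.21 ± 0.14 log2 (limma over all probes, adjusted p = 0.742).

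Erbb3, which binds neuregulins and signals through its partners, was lower in both inhibitor groups on most arrays. In session 3 it read 1.72, 1.62, 1.77 and 1.21 percent in stretch_BIRB796 tissue, 1.28, 1.06, 1.37 and 1.81 percent in BIRB796 tissue, and 2.78, 2.68, 2.44 and 1.49 percent in control tissue. Control replicates 4 to 6 lay above every inhibitor array, and control replicate 7 lay among them. In session 1 it read 8.02, 10.2 and 6.08 percent in stretch tissue, against 7.81, 8.33 and 5.06 percent in control tissue, and the groups overlapped.

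Erbb4, the neuregulin receptor of embryonic heart muscle, overlapped between groups in both sessions. It read 3.96, 3.23 and 1.78 percent in session 1 stretch tissue, against 2.93, 2.74 and 0.999 percent in session 1 control tissue, where the last array was not well above background. The log2 difference was 0.43 and 0.24 on slides 1 and 2, and slide 3 held the dim control array. The session 2 stretch arrays read 1.55, 1.54, 1.25 and 0.228 percent, below every session 3 control array. The sign of the fitted stretch difference depended on how sessions were modelled. It was 0.50 ± 0.56 log2 (SE) with a term for each session, which compares stretch with control in session 1 alone. It was -0.58 ± 0.44 log2 (SE) with sessions 2 and 3 as 1 set, which also compares session 2 stretch with session 3 control arrays. Stretch and session cannot be told apart in that added comparison. Erbb4 in session 3 ranged from 1.68 to 2.30 percent in stretch_BIRB796 tissue, from 1.32 to 3.00 percent in BIRB796 tissue and from 1.99 to 2.65 percent in control tissue.

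Stretch replicate 7, the dimmest array, had the extreme value of most members. Hbegf read 630 percent, Areg 185 percent and Ereg 25.6 percent there, the highest of all arrays. Egfr at 13.3 percent and Nrg1 at 4.00 percent were the lowest of all arrays, and Erbb3 at 0.450 and Erbb4 at 0.228 percent were not well above background. Cell type markers were also off their median over samples on this array. All 8 macrophage markers lay below it, at 0.0241 to 0.698 times the median, as did 7 of 8 endothelial markers and 7 of 8 epicardial markers. Fibroblast markers lay below it in 7 of 8 cases but with a wide spread, from 0.028 times for Tcf21 to 1.25 times for Col1a2. Smooth muscle and pericyte markers were split, with 4 of 6 above and 2 of 6 below, and 7 of 9 cardiomyocyte markers lay above. The part of cell makeup in the member values of this array was not tested.

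The first test asked what the p38 inhibitor did to unstretched tissue. With all 21 samples and a term for scan session, none of the 9 fitted members passed (limma with Benjamini-Hochberg adjustment over all 23479 genes, adjusted p under 0.05). The percentage of all genes called was 0.0 as well. At an unadjusted p under 0.05 the counts were 0 members and 1459 genes. Hbegf was 1.74-fold higher in BIRB796 than in control tissue, at 0.80 ± 0.61 log2 (SE), Areg was 0.73 ± 0.60 and Ereg 0.61 ± 0.59 log2, all with adjusted p = 1.00 by limma. Erbb3 was -0.75 ± 0.41 log2 (limma, adjusted p = 0.883). Only slide 6 carried both groups, with 1 array each. The log2 differences there were 1.27 for Hbegf, 1.05 for Areg, 1.5 for Ereg and -1.12 for Erbb3. Ereg was not well above background on that control array, replicate 4.

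Session 3 fitted alone, without the wide spread of the stretch arrays, gave the same differences with smaller errors. It called 422 genes, or 1.8% of those tested (0.737% higher and 1.06% lower), and again 0 of 9 members. Unadjusted p-values were under 0.05 for Hbegf, Egfr and Erbb3. For Erbb3 the adjusted p was 0.102 by limma, with an SE of 0.22. The call depended on control replicate 7. Without it, session 3 alone gave -0.96 ± 0.18 log2 for Erbb3 (limma, adjusted p = 0.0143) and called 2274 genes. It called 0 genes by limma without control replicate 4, 5 or 6 or BIRB796 replicate 2, with 3248 to 3843 genes at an unadjusted p under 0.05, and 62 genes with slides as a random block. When stretch_BIRB796 replicate 1, an array of neither compared group, was left out of the same fit, Hbegf was 0.80 ± 0.16 log2 (limma, adjusted p = 0.0290). That fit called 887 genes.

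Cell type markers also differed in session 3 fitted alone. All 8 epicardial and mesothelial markers were lower in BIRB796 than in control tissue, with a median of -1.55 log2, and 2 of 8 passed the test. Their summed level was 196 to 361 percent in BIRB796 tissue and 426 to 674 percent in control tissue. All 6 smooth muscle and pericyte markers were higher, with a median of 1.15 log2, and 3 of 6 passed. Their summed level was 3370 to 5570 percent in BIRB796 tissue and 1830 to 2700 percent in control tissue. All 8 macrophage markers were lower with a median of -0.59 log2 and none passed, and 7 of 8 endothelial markers were lower with a median of -0.58 log2 and 1 passed. No cardiomyocyte, fibroblast, neural and glial or erythroid marker passed, with medians of -0.09, -0.15, -0.01 and -0.21 log2. The part of cell types in the values of Hbegf and Erbb3 was not tested.

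The second test set stretch_BIRB796 against BIRB796 tissue, the effect of stretch with the inhibitor present. None of the 9 members passed (limma), and 0.0% of all genes did. At an unadjusted p under 0.05 there were 0 members and 440 genes. Areg was 0.63 ± 0.60 log2 (SE), Ereg 0.16 ± 0.59, Hbegf -0.05 ± 0.61 and Egfr 0.04 ± 0.47 log2. The Areg difference rested on stretch_BIRB796 replicate 1, and without it the estimate was 0.22 log2. Within slides 6 and 9 the Areg difference was 1.90 and 0.61 log2, and that of Hbegf was 0.97 and -0.19 log2. Session 3 alone called 18 genes (0.0767%, with 0.0681% higher and 0.00852% lower) and 0 members.

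The third test set stretch_BIRB796 against control tissue, both factors together. It called 18 genes, or 0.0767% of those tested (0.0213% higher and 0.0554% lower), and 0 of 9 members (limma). At an unadjusted p under 0.05 there were 1 member and 2191 genes. Areg was the member, at 1.36 ± 0.60 log2 (SE) or 2.57-fold higher in stretch_BIRB796 tissue (limma with Benjamini-Hochberg adjustment, adjusted p = 0.480). Ereg was 0.78 ± 0.59, Hbegf 0.75 ± 0.61 and Erbb3 -0.55 ± 0.41 log2. The 2 slides that carried both groups differed for Areg, with 2.95 log2 on slide 6 and -0.22 log2 on slide 8, which held control replicate 7.

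Session 3 alone called 1784 genes (7.6%, with 3.27% higher and 4.33% lower) for this comparison and 0 members. Areg had an adjusted p of 0.0725 and Erbb3 one of 0.158 by limma. Without control replicate 7, both passed. Areg was then 1.69 ± 0.39 log2 (limma, adjusted p = 0.0177) and Erbb3 -0.75 ± 0.18 log2 (limma, adjusted p = 0.0234), while 3809 genes were called. Leaving out control replicate 4, 5 or 6 left 147, 99 or 142 genes called. Among themselves these 3 control arrays differed by only 1.15 to 1.67 times the noise between repeated spots. The marker lists differed here too. All 6 smooth muscle and pericyte markers were higher, and 5 of 6 passed. Lower were all 8 macrophage markers (5 passed), 7 of 8 endothelial markers (4 passed) and all 8 epicardial markers (2 passed). No cardiomyocyte or fibroblast marker passed, with medians of 0.07 and 0.09 log2. In the neural and glial list 1 marker passed, lower, as did 1 in the erythroid list. The part of cell types in the member values was not tested.

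**Figure D3:**
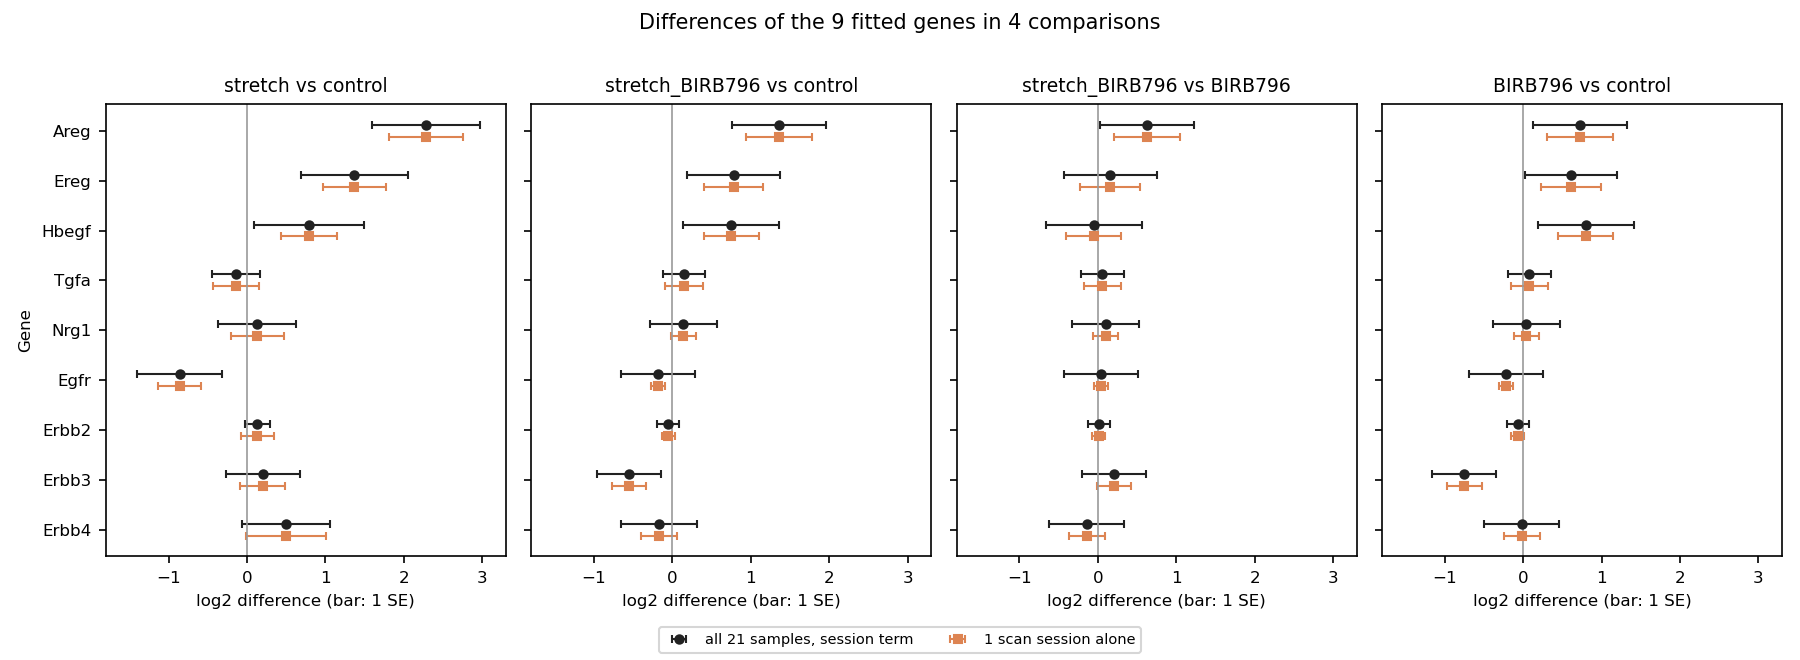
Log2 differences of the 9 fitted genes in 4 comparisons; points are estimates and bars are 1 SE, in black from all 21 samples with a session term and in orange from 1 scan session alone. The stretch against control panel is a description; Areg stands at 2.28 there, 1.36 in stretch_BIRB796 against control, 0.63 in stretch_BIRB796 against BIRB796 and 0.73 in BIRB796 against control.

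Whether the inhibitor altered the stretch response of the ligands can only be described, since it needs the stretch arrays. The effect of stretch with BIRB796 minus that without it was -1.64 ± 0.91 log2 for Areg, -1.20 ± 0.90 for Ereg, -0.84 ± 0.93 for Hbegf and 0.89 ± 0.72 for Egfr (SE). For these 4 genes the stretch difference was thus nearer to 0 with the inhibitor, with errors of 0.72 to 0.93 log2. Stretch_BIRB796 against stretch, set through the control arrays of 2 sessions, was -0.91 ± 0.91 log2 for Areg and -0.04 ± 0.93 for Hbegf. With sessions 2 and 3 as 1 set, it was -2.10 ± 0.62 log2 for Areg and -1.24 ± 0.63 for Hbegf, and the difference of the stretch effects was -2.51 ± 0.80 and -1.71 ± 0.81 log2. The 2 effects come from different scan sessions, so inhibitor and session cannot be told apart here.

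Of the other genes of the pathway, 60 of 63 listed were measured (4 ligands, 6 shedding proteases and their regulators, 8 adaptors, 8 inhibitors, 22 relay kinases and transducers, and 12 response genes). With all samples, 0 of 60 passed in each of the 3 tests by limma. Their median difference was -0.01 log2 for BIRB796 against control, 0.02 for stretch_BIRB796 against BIRB796 and 0.06 for stretch_BIRB796 against control, beside -0.02, 0.05 and 0.04 over all genes. By role, the medians for BIRB796 against control were 0.01 log2 for ligands, -0.15 for shedding, -0.02 for adaptors, 0.00 for inhibitors, 0.09 for the relay and -0.15 for response genes.

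Session 3 alone called 1 of these 60 genes (1.67%) for BIRB796 against control and 3 (5.0%) for stretch_BIRB796 against control, beside 1.8% and 7.6% of all genes. The share called in the list was not above that of all genes, and the 3 genes are given as single values. Errfi1, an inhibitor of the ERBB kinase domains that is itself induced by EGF signalling, read 353, 242, 233 and 307 percent in stretch_BIRB796 tissue, 436, 339, 333 and 385 percent in BIRB796 tissue, and 154, 171, 170 and 211 percent in control tissue. No array of either inhibitor group overlapped with session 3 control arrays. Of all genes, 11.8% did not overlap for BIRB796 against control and 16.8% for stretch_BIRB796 against control. The difference was 1.08 ± 0.15 log2 for BIRB796 (limma, adjusted p = 0.0202) and 0.67 ± 0.15 log2 for stretch_BIRB796 (limma, adjusted p = 0.0300). It passed in 8 and 7 of the 12 fits that left out 1 array, with adjusted p up to 0.0898 and 0.0942 without control replicate 5, and with all samples the adjusted p was 0.499 and 0.654 by limma.

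Dusp6 and Etv5 were the 2 of 12 listed response genes of the ERK relay that passed, both lower, for stretch_BIRB796 against control in session 3. Over the 12, 5 differences were positive and the median was -0.10 log2. Dusp6, a phosphatase of ERK, read 521, 415, 423 and 438 percent there, against 632, 604, 625 and 637 percent in control tissue, a difference of -0.48 ± 0.12 log2 (limma, adjusted p = 0.0423). Etv5, an ETS transcription factor, read 336, 330, 340 and 335 percent, against 464, 451, 462 and 370 percent in control tissue, a difference of -0.37 ± 0.09 log2 (limma, adjusted p = 0.0354). No stretch_BIRB796 array overlapped with session 3 control arrays for either gene, as for 16.8% of all genes in this comparison. BIRB796 tissue read 433 to 664 percent for Dusp6 and 300 to 368 percent for Etv5. Each passed in 3 of the 12 fits that left out 1 array, and with all samples the adjusted p was 0.480 for Dusp6 and 0.523 for Etv5 by limma.

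**Figure D4:**
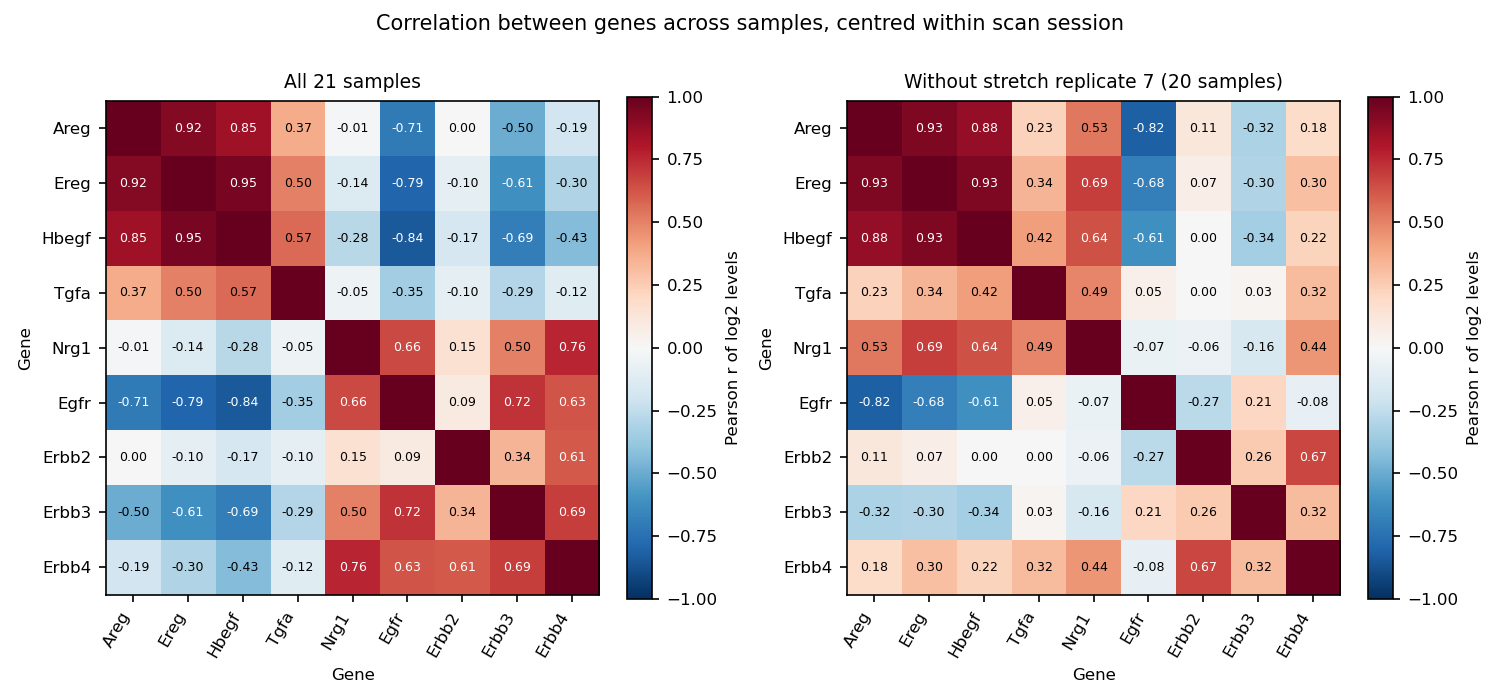
Pearson correlation of log2 levels between the 9 fitted genes across samples, after centring within each scan session, with all 21 samples on the left and without stretch replicate 7 on the right (20 samples). Areg, Ereg and Hbegf correlate at 0.85 to 0.95 on the left and at 0.88 to 0.93 on the right. Between receptors, Egfr with Erbb3 goes from 0.72 to 0.21, Egfr with Erbb4 from 0.63 to -0.08 and Erbb3 with Erbb4 from 0.69 to 0.32.

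Across samples, centred within scan session so that differences between sessions drop out, Areg, Ereg and Hbegf varied together. Over 21 samples, Pearson's r was 0.92 between Areg and Ereg (Spearman's rho 0.84), 0.95 between Ereg and Hbegf (rho 0.85) and 0.85 between Areg and Hbegf (rho 0.70). Without stretch replicate 7 these were 0.93, 0.93 and 0.88. Areg and Egfr ran opposite, with r = -0.71 (rho -0.72), and -0.82 without stretch replicate 7. The samples share treatments and arrays, so these 36 correlations are a description with no p-value.

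Of the 6 receptor pairs, 3 rested on that array. Egfr and Erbb3 had r = 0.72 with it and 0.21 without it, Egfr and Erbb4 had 0.63 with it and -0.08 without it, and Erbb3 and Erbb4 had 0.69 with it and 0.32 without it. Erbb2 and Erbb4 had 0.61 with it and 0.67 without it, Erbb2 and Erbb3 had 0.34 and 0.26, and Egfr and Erbb2 had 0.09 and -0.27. Nrg1 and Hbegf had -0.28 with it and 0.64 without it. For that pair Spearman's rho over 21 samples was 0.13, and r was 0.22 without the 2 samples farthest out. Its r thus changed with the samples kept.

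The genes most like a member were named by rank of the same correlation among 23256 genes. For Areg they were C9h6orf141 at 0.957, Myl12a, a regulatory light chain of non-muscle myosin, at 0.943 and Fam241a at 0.937. For Hbegf they were Bag2, a co-chaperone, at 0.966, Mafk, a small Maf transcription factor, at 0.960 and Txndc12 at 0.955. For Nrg1 they were Rin3, Myo10 and Prag1, at 0.946, 0.946 and 0.937. The closest named gene to Egfr was Slit2, a secreted guidance protein, at 0.981, and 0.907 without stretch replicate 7. For Tgfa it was Asprv1 at 0.927, and for Erbb2 it was Asb12 at 0.789. Ereg, Erbb3 and Erbb4 were not well above background on every array and were not ranked.

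Levels also differed between sessions within control tissue, which had the same treatment in both. Tgfa read 39.1 to 51.7 percent in control tissue of session 1 and 5.94 to 10.6 percent in that of session 3 on its brighter probe. Erbb3 read 5.06 to 8.33 percent in session 1 control tissue and 1.49 to 2.78 percent in session 3 control tissue, and Areg 6.44 to 10.9 and 2.77 to 7.81 percent. Egfr, Erbb2 and Nrg1 lay closer, with Egfr at 136 to 153 percent and 113 to 119 percent in control tissue of sessions 1 and 3. Culture, array handling and scan of a session cannot be told apart. When sessions 2 and 3 were fitted as 1 set, which lets the session 2 stretch arrays be compared with the session 3 control arrays, the stretch difference was 3.14 ± 0.49 log2 for Areg, 2.54 ± 0.52 for Ereg, 1.66 ± 0.50 for Hbegf and -0.94 ± 0.36 for Egfr (SE).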

How the data were processed

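Total RNA of 22 tissue samples was hybridised to 1-colour (Cy3) Agilent arrays, 1 sample an array, on 9 slides. The deposited intensity values are background-subtracted processed signals from Agilent Feature Extraction, per the file headers, whose versions were 10.7.1.1, 10.7.3.1 and 11.0.1.1 in scan sessions 1, 2 and 3. The log2 values in the authors' deposited matrix were used as an alternative; they follow the scanner values of each array after centring of each probe, and their baseline stays unknown.

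From the intensities, log2 signal minus each array's 75th percentile was computed, spots of a probe were averaged and outlier spots left out. Probes had to be well above background on 4 or more arrays, which left 26884, and the brightest probe stood for a gene. Limma 3.58.1 in R 4.3.3 fitted group and scan session, with Benjamini-Hochberg adjustment over 23479 genes, two-sided, and calls at an adjusted p under 0.05. The fit was tested on simulated data. The number of arrays limits the precision.

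Gene names were updated through RefSeq for 17990 probes by accession, 2367 by symbol and 615 by synonym. Stretch and control replicates 1 to 3 share slides, and their deviations from the group means correlated at 0.505, 0.148 and 0.569. A shared slide and a paired sample cannot be told apart there. For stretch_BIRB796 and BIRB796 these were 0.529, 0.014, 0.084 and 0.076 in replicates 1 to 4. Only the first was high, and its arrays share slide 6, so no pairing by number is shown.

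The members and gene lists were chosen with earlier results of these data known. Named were all members with every probe and up to 2 called genes of each pathway role each way. The 3 genes most correlated with a member were ranked for members well above background on every array. All 3 are named for Areg, Hbegf and Nrg1, and only the closest named gene for Egfr, Tgfa and Erbb2. The alternatives were normexp with quantile scaling (on median spot signals, since mean signals are not in every file), median scaling, filters on dim probes, the mean over probes, other session terms, slides as a random block, a replicate block, arrays 4 and 5 of the stretch group kept apart, the authors' matrix and leaving out each replicate. Session 3 alone with slides as a block or with 1 array left out was added after seeing the data.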

Additional observations from a re-analysis of the deposited data

Results flagged for a closer look

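Among 40 groups of samples checked, 1 for each gene and treatment, 3 held a sample far from the others relative to the group's range, and chance alone flags about 1 in 20. Egfr in stretch tissue was lowest in replicate 7, at 13.3 percent of the array's 75th percentile, and the next lowest was 60.6 percent. Erbb2 in control tissue was lowest in replicate 3, at 96.5 percent, and the next was 129 percent. Erbb4 in control tissue was lowest in the same replicate, at 0.999 percent, and the next was 1.99 percent. The stretch and control groups span scan sessions.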

How the results depend on the processing

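All values are log2 differences unless called counts. In the 3 tests, which leave out stretch against control, no member passed in the fits of all 21 samples. Leaving out 1 replicate in those fits changed no call on a member. Several differences turned sign. For BIRB796 against control, Tgfa was -0.08 with sessions 2 and 3 as 1 set and -1.06 with no session term, and Nrg1 was -0.04 with no session term. Erbb2 was 0.00 with median scaling, 0.07 with the mean over probes, 0.04 with sessions 2 and 3 as 1 set and 0.02 with no session term. Erbb4 was 0.01 with normexp, 0.05 with median scaling, 0.38 with sessions 2 and 3 as 1 set, 0.03 with no session term, 0.09 with slides as a block, 0.01 in the authors' values and 0.05 in session 3 alone with slides as a block. For stretch_BIRB796 against BIRB796, Tgfa was -0.01 with normexp and -0.06 with the mean over probes. With slides as a block, Nrg1 was -0.02, Egfr -0.04 and Erbb2 -0.04, and in session 3 alone with that block Egfr was -0.01 and Erbb2 -0.02. Erbb2 was -0.07 with the mean over probes and -0.02 in the authors' values. For stretch_BIRB796 against control, Tgfa was -0.02 with sessions 2 and 3 as 1 set and -1.0 with no session term. Erbb2 was 0.01 with median scaling, 0.01 with the mean over probes, 0.05 with sessions 2 and 3 as 1 set and 0.04 with no session term, and Erbb4 was 0.24 with sessions 2 and 3 as 1 set. The cause of these turns was not tested. Counts of genes called moved more. Session 3 alone called 422, 18 and 1784 genes for BIRB796 against control, stretch_BIRB796 against BIRB796 and stretch_BIRB796 against control, and 62, 24 and 1665 with slides as a block. For the last comparison the count was 2 with sessions 2 and 3 as 1 set, 1 with no session term and 69 with slides as a block. Areg in stretch against control was 3.14 with sessions 2 and 3 as 1 set and 3.17 with no session term, in stretch_BIRB796 against stretch -2.10 and -2.28, and in the difference of stretch effects -2.51 and -2.53. With sessions 2 and 3 as 1 set, Erbb4 turned sign in all 3 of these, to -0.58, 0.82 and 0.44, against 0.50, -0.67 and -0.64 with a term for each session. Leaving out 1 replicate, over both fits, gave 0 to 2274, 0 to 29 and 0 to 3809 genes in the same order, and 0 to 1 members for BIRB796 against control and 0 to 2 for stretch_BIRB796 against control. For BIRB796 against control, Tgfa then ranged from -0.11 to 0.27, Nrg1 from -0.05 to 0.19 and Erbb4 from -0.18 to 0.21. For stretch_BIRB796 against BIRB796, Ereg ranged from -0.19 to 0.45, Hbegf from -0.46 to 0.13, Tgfa from -0.08 to 0.26, Egfr from -0.02 to 0.10, Erbb2 from -0.03 to 0.07 and Erbb4 from -0.38 to 0.02. Erbb2 in stretch_BIRB796 against control ranged from -0.10 to 0.00, and Areg in stretch against control from 1.85 to 2.75. With a replicate block, Areg was 0.63 ± 0.35 for stretch_BIRB796 against BIRB796 (limma, adjusted p = 0.633), and 2.28 ± 0.42 for stretch against control. No block was fitted for the inhibitor groups against control, since control replicates 1 to 3 lie in another session and only replicate 4 shares session 3. Btc, and Erbb3, Erbb4 and Ereg on single arrays, were limited by signal near background.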
